A study of Mus musculus with 240 samples.

Results

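The gastrocnemius is a large calf muscle of mixed but mostly fast fibres. Its RNA was compared here between obese and lean male BTBR mice at 10 weeks of age. The comparison rests on the 10 arrays whose titles name gastrocnemius, the BTBR strain and 10 weeks, out of 240 arrays in the series: 5 from mice carrying the ob mutation (mice 4, 5, 9, 10 and 18) and 5 from lean mice (mice 26, 30, 31, 32 and 33). The mice came from colonies kept by the study's own laboratory, and each number names a separate mouse. The 2-colour arrays paired each mouse's muscle RNA with a pool of equal parts of RNA from 20 samples of the same strain and tissue. A value is therefore the log2 ratio of a mouse to its strain pool. It compares mice for 1 gene and holds no absolute level, so the tissue label could not be checked against marker levels. Both groups share the BTBR background, sex, tissue and pool. The labels do not say which leptin alleles the lean mice carried, and they name no batch.

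The ob mutation ends production of working leptin, the fat-cell hormone that restrains feeding. Mice without it overeat and become obese on any background, while on the BTBR background obesity is followed by severe diabetes and on the C57BL/6 (B6) background blood glucose is largely held. Skeletal muscle takes up much of the body's glucose under insulin. It burns either that glucose or fatty acids, which it draws from the blood and from its own lipid droplets. Fatty acids and some of their derivatives activate nuclear receptors of the PPAR family, which switch on the genes of fatty acid uptake and oxidation.

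No label states which channel is on top of the deposited ratio, so the direction is likely rather than known: signed values are ob minus lean with the mouse on top. The following values bear on it. Of the 200 most variable probes, 84.0% averaged below 0 in BTBR gastrocnemius and 92.5% in B6. All 11 measured genes of a juvenile growth list were lower at 10 than at 4 weeks in lean BTBR mice under this reading, with a median of -2.33, among them Igf2 at -2.49 and Col1a1 at -2.94. In adipose tissue of 10-week BTBR mice, set against a pool labelled BTBRob, the Lep transcript, which ob mice make in excess, lay between 0.11 and 1.0 in 5 ob mice and between -1.99 and -1.26 in 5 lean mice, and these included 4 of the 5 ob and all 5 lean mice studied here. In the gastrocnemius itself Lep differed by -0.00 ± 0.06 (adjusted p 0.98). With the sign turned, every "higher" below would read "lower". Of the 190 pairs among the 20 BTBR gastrocnemius arrays, 50 correlated below -0.3, and in 0 of these were both mice of the same age.

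Across the genome the 2 groups of BTBR mice were well separated. Over all genes, arrays of 2 lean mice correlated at 0.45 to 0.67, those of 2 ob mice at 0.58 to 0.74, and those of an ob and a lean mouse at -0.12 to 0.23. Of 19896 genes tested, 5008 passed an adjusted p of 0.05, which is 25.2%, with 2363 higher in ob (11.9%) and 2645 lower (13.3%). With the ratio turned, these would be 2645 higher and 2363 lower. The balance depended on the scaling: arrays centred on their median gave 2587 higher and 2373 lower, and quantile normalization 2619 and 2416. Most changes were small: the called genes had a median absolute log2 difference of 0.32, and 198 of them differed by at least 1, 104 upwards and 94 downwards. In 4232 genes every ob mouse lay on one side of every lean mouse, 21.3% of those tested. In what follows, rose and fell are said only of genes past that threshold. Shares of gene lists are read against these backgrounds. At 25.2% called, passing the test is common, so counts near that share say little about a list.

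**Figure D1:**
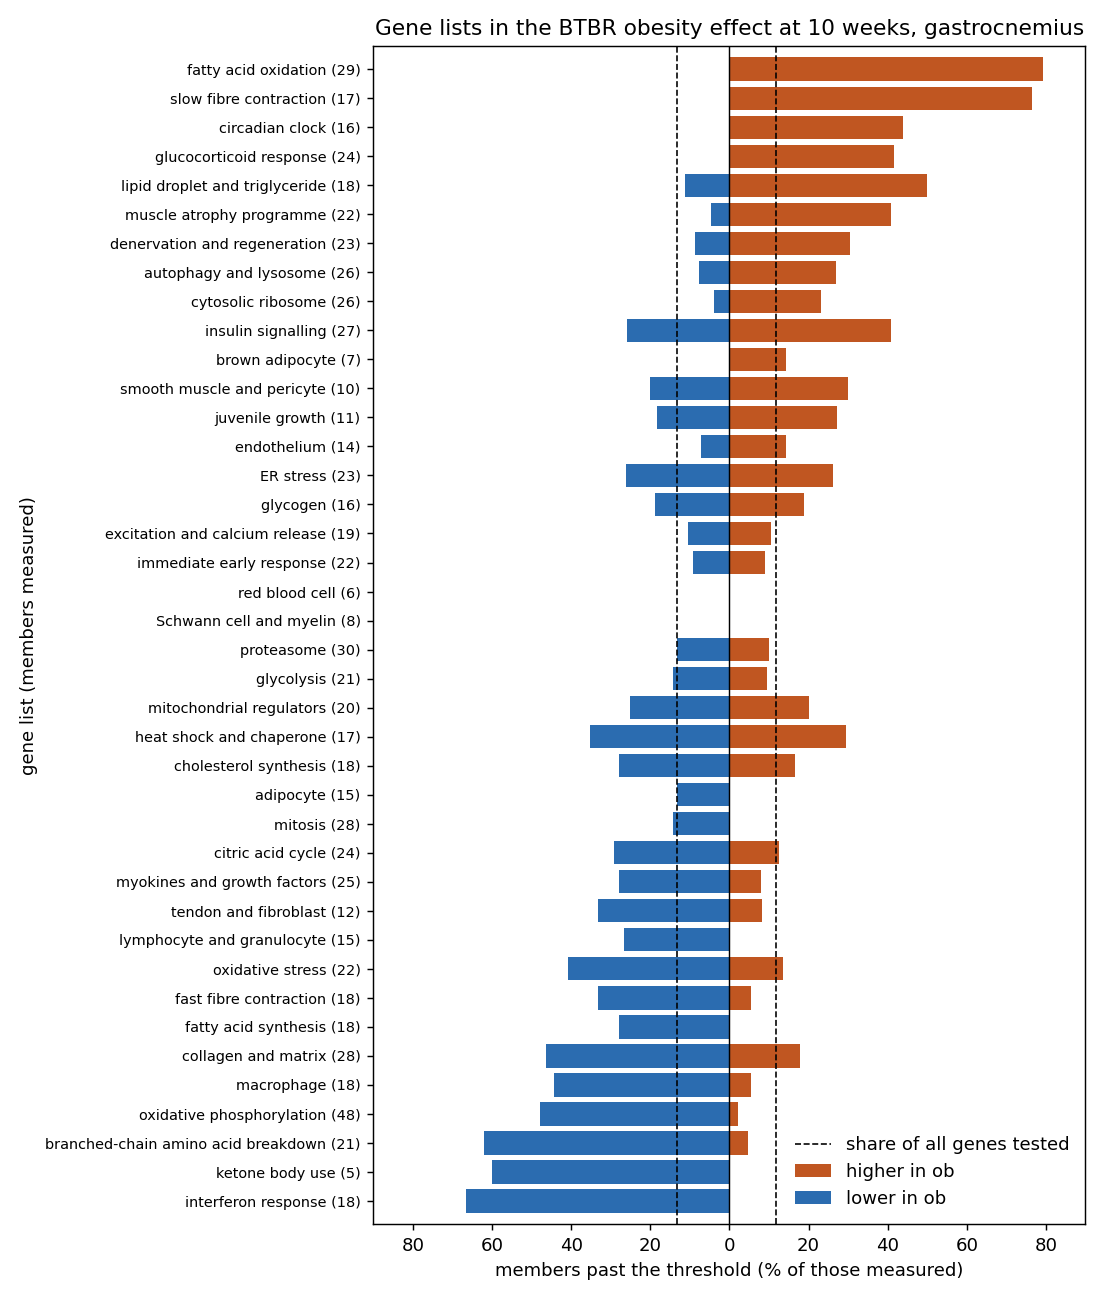
Share of the measured members of each gene list that passed an adjusted p of 0.05 in the BTBR comparison at 10 weeks, with members higher in ob to the right and members lower in ob to the left of 0 (percent of members measured, number measured in parentheses). The dashed lines mark the shares over all 19896 genes, 11.9% higher and 13.3% lower; fatty acid oxidation and slow fibre contraction reach furthest to the right, and interferon response furthest to the left.

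The arrays of lean mouse 26 and ob mouse 18 stood apart for particular gene groups. Some of the results that lean on them, but not all, are given with and without them. Ob mouse 18 held 38.9% of the genes in which 1 ob mouse lay far from the other 4, and it had the lowest array weight of the ob group, 0.618. Lean mouse 26 held 24.7% of such genes in the lean group, close to lean mice 31 (28.3%) and 32 (22.2%), but it led the lean group in interferon, macrophage and adipocyte genes.

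Of the lists examined, fatty acid oxidation had the largest share of genes that rose. Of 29 measured genes for the uptake, activation and mitochondrial oxidation of fatty acids, 23 rose in ob muscle and 0 fell, with a median of 0.64 beside -0.02 over all genes. In 21 of the 29 the lowest ob mouse lay above the highest lean mouse. Acot1 and Acot2, cytosolic and mitochondrial thioesterases that split acyl-CoA into fatty acid and coenzyme A, led the list. The mean over the list lay between -0.29 and -0.10 in the lean mice and between 0.56 and 0.68 in the ob mice. Without lean mouse 26 and ob mouse 18 the count was again 23 higher and 0 lower.

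The promoters of 4 of these lipid genes are shown because they are known PPAR targets and are described below. Each is the 300 bases from 250 before to 50 after the annotated transcription start, 5′ to 3′ on the gene's own strand, from RefSeq on build GRCm38.p6. Capitals mark AGGTCA, the 6-base half-site of nuclear receptors, searched on both strands.
Acot1 at chr12:84009252-84009551, plus strand: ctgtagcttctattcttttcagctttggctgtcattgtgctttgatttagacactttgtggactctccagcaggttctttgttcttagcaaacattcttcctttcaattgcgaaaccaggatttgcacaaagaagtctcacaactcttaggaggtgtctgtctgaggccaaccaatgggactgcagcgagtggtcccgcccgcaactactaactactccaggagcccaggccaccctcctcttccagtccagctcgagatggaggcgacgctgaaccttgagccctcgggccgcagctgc
Acot2 at chr12:83987611-83987910, plus strand: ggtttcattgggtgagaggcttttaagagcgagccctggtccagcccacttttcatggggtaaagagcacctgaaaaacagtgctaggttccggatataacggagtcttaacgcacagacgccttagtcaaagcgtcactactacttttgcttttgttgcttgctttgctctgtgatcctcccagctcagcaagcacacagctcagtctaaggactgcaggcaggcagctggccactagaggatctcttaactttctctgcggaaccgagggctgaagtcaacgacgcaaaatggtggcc
Ucp3 at chr7:100472741-100473040, plus strand: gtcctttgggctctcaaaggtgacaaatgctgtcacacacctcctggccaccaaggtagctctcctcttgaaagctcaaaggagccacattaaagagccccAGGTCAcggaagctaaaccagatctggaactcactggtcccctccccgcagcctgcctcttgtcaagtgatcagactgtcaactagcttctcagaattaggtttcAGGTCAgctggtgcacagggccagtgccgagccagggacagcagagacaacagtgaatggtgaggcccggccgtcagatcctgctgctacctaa
Plin5 at chr17:56117499-56117798, minus strand: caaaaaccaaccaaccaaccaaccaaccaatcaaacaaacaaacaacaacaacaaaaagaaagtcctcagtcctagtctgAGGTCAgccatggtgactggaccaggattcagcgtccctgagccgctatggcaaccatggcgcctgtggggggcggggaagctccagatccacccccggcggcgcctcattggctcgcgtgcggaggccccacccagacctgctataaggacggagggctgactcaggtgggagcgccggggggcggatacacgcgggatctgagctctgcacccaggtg
Neither Acot window holds the half-site. It begins 149 and 44 bases before the Ucp3 start and 170 bases before the first of 2 Plin5 starts in the RefSeq table. It occurs in 16.3% of 32851 promoters of the same length, and in 5 of the 24 oxidation genes with a promoter in the table (20.8%, beside 18.1% of all 27025 genes). The longer motif, 2 copies of AGGNCA with 1 base of any kind between them, occurs in 0.381% of promoters and in 0 of the 24. A match describes letters and is no evidence of binding. The Acot1 and Acot2 windows lie 21641 bases apart and match at 47.5% of 318 aligned positions. Since the coding sequences of these neighbouring genes are much alike, their probes may read each other's transcript, and their separate sizes are uncertain.

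Acot1 stood at -1.69, -2.07, -2.06, -2.14 and -2.21 in the lean mice and 1.81, 1.75, 1.61, 1.87 and 1.32 in the ob mice, in the order of mice given at the opening, which is kept throughout. The ob mice were 13.0-fold higher, a log2 difference of 3.70 ± 0.22 (adjusted p 1.5e-14), where ± is the standard error and n is 5 mice a group. All 5 ob mice lay over 3 log2 units above every lean mouse. Acot2 stood at -0.74, -0.98, -0.90, -1.11 and -1.19 in the lean mice and 1.47, 1.52, 1.14, 1.26 and 1.47 in the ob mice, a difference of 2.36 ± 0.13 (adjusted p 3e-15). The groups were again wholly apart. Pdk4, the kinase that shuts pyruvate dehydrogenase and so spares glucose, stood at 0.01, -0.40, -0.35, -0.30 and -0.55 in the lean mice and 0.68, 1.22, 0.67, 0.93 and 1.21 in the ob mice. Its difference was 1.26 ± 0.25 (adjusted p 0.00016), and lean mouse 26 was the lean mouse nearest the ob group. Angptl4, a secreted inhibitor of lipoprotein lipase and a PPAR target, rose by 1.08 ± 0.22 (adjusted p 0.00023), yet its groups overlapped because lean mouse 26, at 0.39, lay above ob mouse 9, at 0.11.

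Genes of several steps of the pathway were among those that rose. For entry into the cell, the fatty acid translocase Cd36 rose by 0.64 ± 0.10 (adjusted p 7.9e-06) and the heart-type fatty acid binding protein Fabp3 by 1.46 ± 0.15 (adjusted p 1.9e-09). Fabp3 ranged from -0.72 to -0.26 in the lean mice and from 0.69 to 1.90 in the ob mice, where ob mouse 9 was far above the others. For activation, the acyl-CoA synthetase Acsl1 rose by 0.96 ± 0.08 (adjusted p 2.4e-11). For passage into the mitochondrion, the carnitine palmitoyltransferase Cpt1b rose by 0.49 ± 0.11 (adjusted p 0.0006) and the carnitine-acylcarnitine carrier Slc25a20 by 0.93 ± 0.07 (adjusted p 3.3e-12). Mlycd, which breaks down the malonyl-CoA that inhibits that passage, rose by 1.12 ± 0.08 (adjusted p 3.2e-13). Within the mitochondrion, the long-chain dehydrogenase Acadl stood at -0.32, -0.37, -0.16, -0.32 and -0.35 in the lean mice and 0.82, 0.81, 0.82, 0.92 and 0.93 in the ob mice. That is a difference of 1.17 ± 0.10 (adjusted p 1.2e-10) with little spread in either group. The very-long-chain dehydrogenase Acadvl rose by 0.62 ± 0.06 (adjusted p 1.5e-10), the trifunctional protein subunits Hadha and Hadhb by 0.59 ± 0.06 and 0.61 ± 0.06, and the dienoyl-CoA isomerase Ech1 by 1.05 ± 0.08. Ucp3, the mitochondrial uncoupling protein of muscle, ranged from -0.68 to 0.63 in the lean mice and from 0.26 to 1.24 in the ob mice, and its 0.89 ± 0.35 (adjusted p 0.06) missed the threshold. Without lean mouse 31, the highest lean value at 0.63, it was 1.08 (adjusted p 0.03). Lpl, the lipase that frees fatty acids from blood lipoproteins, differed by -0.16 ± 0.14 (adjusted p 0.49), and the short-chain dehydrogenase Acads by -0.06 ± 0.10 (adjusted p 0.74).

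**Figure D2:**
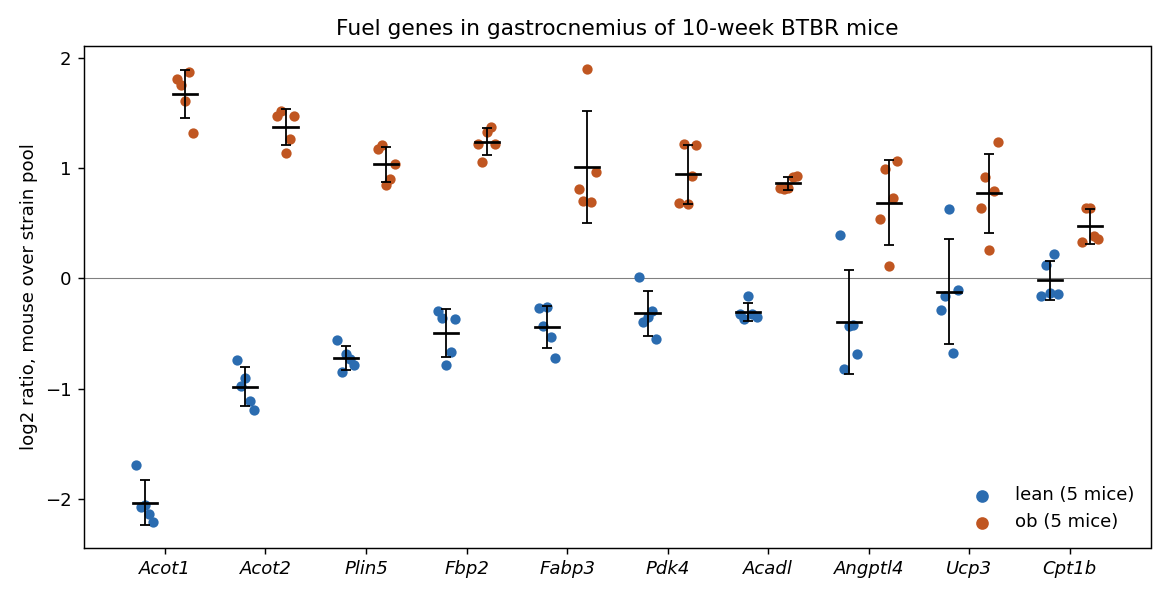
Log2 ratio of mouse over strain pool for 10 fuel genes in each of the 5 lean and 5 ob mice; points are mice, the line is the group mean and the bar its SD. Acot1 has the widest gap, from -1.69 in the highest lean mouse to 1.32 in the lowest ob mouse, while the groups of Angptl4 and Ucp3 overlap.

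Genes of the lipid droplet, the cell's triglyceride store, moved both ways. Of 18 measured, 9 rose and 2 fell, with a median of 0.27. Plin5, the coat protein that ties droplets to mitochondria, stood at -0.56, -0.85, -0.69, -0.73 and -0.79 in the lean mice and 1.17, 1.21, 0.85, 0.90 and 1.04 in the ob mice, a difference of 1.76 ± 0.17 (adjusted p 1.2e-09). The groups did not overlap. Pnpla2, the first lipase of triglyceride breakdown, rose by 1.06 ± 0.12 (adjusted p 1.8e-08), and Mgll, the last, by 0.65 ± 0.10 (adjusted p 3.3e-06). On the side of synthesis, Dgat2, which makes triglyceride, rose by 0.64 ± 0.23 (adjusted p 0.033), but leaving out any of lean mice 30, 32 and 33 or ob mice 4, 5 and 10 ended that call. Plin2, the common droplet coat protein, rose by 0.25 ± 0.08 (adjusted p 0.025), and without ob mouse 18 it was 0.17 (adjusted p 0.15). Its call was also lost without lean mouse 30 (adjusted p 0.09), lean mouse 33 (0.065) or ob mouse 5 (0.051), and with the compared arrays alone (0.16). The synthetase Acsl3 and the droplet-forming protein Fitm1 fell, by 0.69 ± 0.14 and 0.50 ± 0.08. Cidea, a droplet protein best known from brown fat, stood at 0.63, -0.77, -0.44, -0.50 and -0.64 in the lean mice and 0.70, 0.93, 0.94, 0.95 and 0.91 in the ob mice. It was 1.23 ± 0.17 (adjusted p 5.4e-07) higher, with lean mouse 26 close below the ob group. Cidea was the 1 of 7 brown adipocyte genes that was called.

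Fatty acid synthesis was called at a share near that of all genes, but only downwards. Of 18 measured genes, 0 rose and 5 fell, with a median of -0.25. The call share was 27.8%, beside 25.2% of all genes called in either direction and 13.3% called lower. Fasn, fatty acid synthase, stood at 0.74, -1.0, -0.95, -0.32 and -0.07 in the lean mice and -1.08, -1.54, -1.43, -1.66 and -1.18 in the ob mice. It fell by 1.06 ± 0.30 (adjusted p 0.0067), with lean mouse 26 far above the other lean mice and lean mouse 30, at -1.0, next to ob mouse 4, at -1.08. Srebf1, a transcription factor for these enzymes, fell by 0.50 ± 0.18 (adjusted p 0.033), and Thrsp, a lipogenic nuclear protein, by 0.71 ± 0.24 (0.024). Srebf1 lost its call without any of lean mice 26, 32 and 33 or ob mice 5, 9, 10 and 18, and Thrsp without any of lean mice 26 and 31 or ob mice 9 and 10. Acss2, which activates acetate, fell by 0.49 ± 0.07 (6.2e-07), and Pcx, pyruvate carboxylase, by 0.45 ± 0.11 (0.0026). Scd1, the stearoyl-CoA desaturase, differed by -0.39 ± 0.23 (adjusted p 0.24). Without lean mouse 26, and without mice 26 and 18, the list counted 0 higher and 3 lower. In cholesterol synthesis 3 of 18 genes rose and 5 fell, or 3 and 3 without ob mouse 18: the mevalonate decarboxylase Mvd rose by 1.22 ± 0.13 (adjusted p 4.6e-09) and the lanosterol synthase Lss by 0.91 ± 0.11 (adjusted p 1.1e-07), while the sterol reductase Tm7sf2 fell by 0.60 ± 0.09 (1.4e-06).

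Most slow fibre genes rose in ob muscle. Skeletal muscle holds slow, oxidative fibres and fast, more glycolytic ones, each with its own set of myosins, troponins and calcium-handling proteins. Of 17 measured slow fibre genes, 13 rose and 0 fell, with a median of 0.88, and 12 had groups that did not overlap. Of 18 fast fibre genes, 1 rose and 6 fell, with a median of -0.12, or 1 and 4 without mice 26 and 18 and under quantile normalization. These arrays cannot tell apart fewer or more fibres of a type from less or more RNA per fibre, and the same holds for every cell type below.

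Mybpc1, the slow myosin-binding protein C, stood at -2.04, -1.71, -2.41, -1.95 and -2.06 in the lean mice and 0.70, 0.77, 0.52, 0.98 and 0.54 in the ob mice. It was 6.67-fold higher in ob, 2.74 ± 0.23 (adjusted p 4.3e-11), with a gap of over 2 log2 units between the groups. Myh7, the slow myosin heavy chain, stood at -0.81, -0.08, -0.75, -0.36 and -0.42 in the lean mice and 0.81, 0.76, 0.65, 0.97 and 0.19 in the ob mice. The difference was 1.16 ± 0.18 (adjusted p 3.5e-06), and ob mouse 18, at 0.19, came closest to the lean group. The slow troponins Tnni1 and Tnnt1 rose by 1.15 ± 0.14 and 0.96 ± 0.13, the slow light chain Myl2 by 0.88 ± 0.11 and the slow Z-disc protein Myoz2 by 1.11 ± 0.12. Ankrd2 and Csrp3, stretch-responsive proteins of the sarcomere, rose by 1.54 ± 0.24 (adjusted p 7e-06) and 1.18 ± 0.27 (adjusted p 0.00089), with ob mice 5 and 18 highest for both. Myh2, the type IIa myosin, differed by 0.05 ± 0.07 (adjusted p 0.66) with the mean of its 2 probes, but by 0.34 (adjusted p 0.0018) with the more variable probe, so its probes disagree.

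The fast myosins Myh4 and Myh1 were not called. Myh4, of type IIb fibres, differed by 0.04 ± 0.02 (adjusted p 0.18) and Myh1, of type IIx fibres, by 0.29 ± 0.44 (adjusted p 0.71). Myh4 hardly varied in any of the 6 gastrocnemius groups listed, with SDs of 0.01 to 0.05, while in lean soleus it ran from -3.61 to 2.67. Whether its probe could still register a change in this muscle was not tested, so its value says little about type IIb fibres. Among fast fibre genes that fell were Pgam2, the muscle phosphoglycerate mutase, by 0.55 ± 0.08 (1.2e-06), the thin-filament protein Tmod4 by 0.44 ± 0.07 (5.7e-06), and Casq1, the fast calcium store protein, by 0.46 ± 0.13 (0.0079). Ob mouse 18 was lowest for all 3, and without mice 26 and 18 Casq1 was -0.33 (adjusted p 0.099). Atp2a1, the fast calcium pump, rose by 0.20 ± 0.07 (adjusted p 0.023) and lost its call without lean mouse 33, ob mouse 9 or ob mouse 18.

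**Figure D3:**
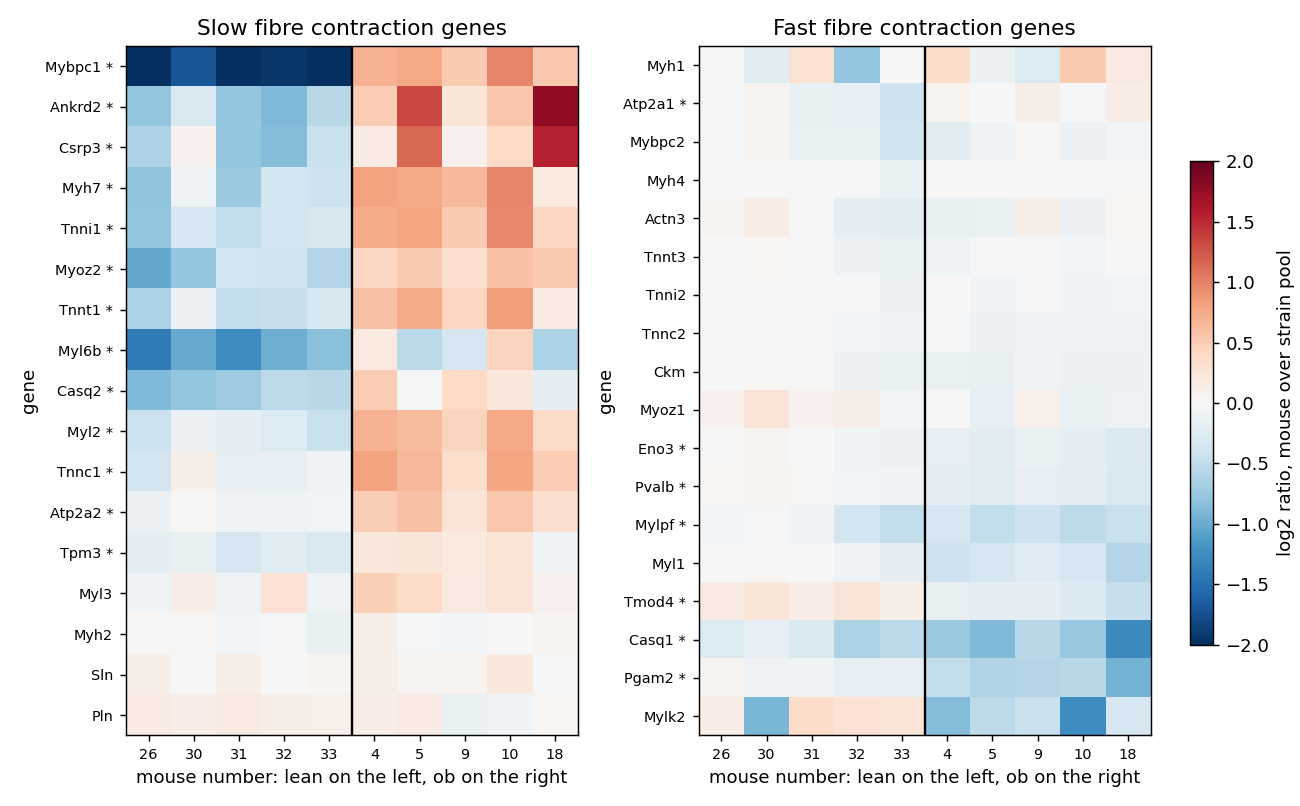
Log2 ratio of mouse over strain pool (colour) for the 17 slow and 18 fast fibre genes measured, by mouse, lean on the left and ob on the right of the black line; an asterisk marks genes that passed an adjusted p of 0.05. Most slow fibre genes turn from blue in lean to red in ob mice, while most fast fibre genes stay close to 0 in both.

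Genes of the embryonic and denervated muscle fibre also differed. Of 23 genes known to rise after denervation or in regeneration, 7 rose and 2 fell, with a median of 0.01. Myh3, the embryonic myosin heavy chain, stood at -2.21, -1.66, -2.09, -1.73 and -1.93 in the lean mice and 0.65, 0.93, -0.06, 1.01 and 0.59 in the ob mice. It was 5.83-fold higher, 2.54 ± 0.19 (adjusted p 6.7e-12), and the groups did not overlap although ob mouse 9 lay below the other ob mice. Myh8, the perinatal myosin, rose by 0.43 ± 0.11 (adjusted p 0.0023), and Ankrd1, a stress protein of the titin filament, by 1.69 ± 0.37 (adjusted p 0.00059), with lean mouse 30 within the ob range. The acetylcholine receptor subunit Chrnb1 rose by 0.69 ± 0.10 (adjusted p 3.4e-06) and the satellite cell factor Pax7 by 0.49 ± 0.13 (adjusted p 0.0047). The myogenic factors Myod1 and Myf6 fell, by 0.65 ± 0.16 (0.0027) and 0.41 ± 0.12 (0.012), and Myf6 lost its call without lean mouse 31 or ob mouse 4.

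Many respiratory chain genes were slightly lower in ob. Of 48 measured subunits of oxidative phosphorylation, 23 fell and 1 rose, with a median of -0.19, and 24 had all ob mice below all lean mice. Cox7a1, a muscle subunit of cytochrome oxidase, stood at 0.14, 0.05, 0.45, 0.28 and 0.27 in the lean mice and -0.26, -0.31, -0.38, -0.30 and -0.39 in the ob mice, a difference of -0.57 ± 0.07 (adjusted p 8.7e-08). The complex I subunits Ndufc1 and Ndufs1 fell by 0.55 ± 0.09 and 0.51 ± 0.08 and the complex III subunit Uqcrh by 0.43 ± 0.09, each with groups apart. Ndufv1, also of complex I, was the 1 that rose, by 0.13 ± 0.04 (adjusted p 0.015), and it lost that call without lean mouse 33. In the citric acid cycle 7 of 24 genes fell and 3 rose, or 4 and 2 without ob mouse 18: fumarase, Fh1, fell by 0.44 ± 0.06 (2.7e-07) and the isocitrate dehydrogenase subunit Idh3a by 0.41 ± 0.07 (4.8e-05). Regulators of mitochondria split, 4 higher and 5 lower of 20, or 4 and 3 without ob mouse 18. Tfb1m, which modifies mitochondrial ribosomal RNA, fell by 0.83 ± 0.07 (5.5e-11), the transcription factor Nrf1 by 0.55 ± 0.05 (3.5e-10) and Tfam, which packages mitochondrial DNA, by 0.27 ± 0.09 (0.021), a call that Tfam lost without lean mouse 33 or ob mouse 9, 10 or 18. The coactivator Ppargc1b rose by 0.79 ± 0.15 (adjusted p 0.00014), whereas its relative Ppargc1a differed by -0.08 ± 0.17 (adjusted p 0.8).

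Most genes of branched-chain amino acid breakdown fell. Leucine, isoleucine and valine are largely broken down in muscle mitochondria. Of 21 measured genes, 13 fell and 1 rose, with a median of -0.29, and in 13 all ob mice lay below all lean mice. Dbt, the core subunit of the branched-chain ketoacid dehydrogenase, stood at 0.30, 0.11, 0.25, 0.20 and 0.23 in the lean mice and -0.38, -0.31, -0.48, -0.54 and -0.59 in the ob mice, a difference of -0.68 ± 0.08 (adjusted p 2.2e-08). The groups were clearly separated. The aminotransferase Bcat2, the first enzyme, fell by 0.51 ± 0.12 (0.0011), the phosphatase Ppm1k, which activates the dehydrogenase, by 0.50 ± 0.12 (0.0019), isovaleryl-CoA dehydrogenase, Ivd, by 0.64 ± 0.15 (0.0015) and methylmalonyl-CoA mutase, Mmut, by 0.56 ± 0.07 (1.8e-07). Ppm1k was -0.37 (adjusted p 0.098) with its more variable probe. Of 5 genes of ketone body use, 3 fell. Oxct1, which admits ketone bodies to oxidation, stood at 0.50, 0.37, 0.86, 0.06 and 0.41 in the lean mice and -0.49, -0.60, -0.78, -0.42 and -0.98 in the ob mice. That is a difference of -1.09 ± 0.24 (adjusted p 0.00065), with groups apart. Bdh1, hydroxybutyrate dehydrogenase, fell by 0.75 ± 0.26 (0.034), a call lost without any of lean mice 31, 32 and 33 or ob mice 4 and 9.

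Sugar metabolism changed in single genes. Glycolysis counted 2 higher and 3 lower of 21 genes and glycogen metabolism 3 and 3 of 16, shares of 23.8% and 37.5% beside 25.2% for all genes. Fbp2, the muscle fructose bisphosphatase, which works against glycolysis, stood at -0.30, -0.36, -0.79, -0.67 and -0.37 in the lean mice and 1.22, 1.05, 1.33, 1.37 and 1.22 in the ob mice. It was 3.33-fold higher, 1.73 ± 0.11 (adjusted p 4.4e-14), with every ob mouse above 1 and every lean mouse below 0. Slc2a4, the insulin-responsive glucose transporter GLUT4, stood at 0.14, 0.18, 0.09, 0.27 and 0.08 in the lean mice and -0.16, 0.05, -0.03, -0.17 and -0.01 in the ob mice. Its difference of -0.22 ± 0.13 (adjusted p 0.23) missed the threshold although the groups did not overlap, and with the 10 arrays alone it was called at the same size (adjusted p 0.014). Hexokinase 2, Hk2, differed by -0.08 ± 0.14 (adjusted p 0.77). In glycogen metabolism the branching enzyme Gbe1 rose by 0.58 ± 0.13 (adjusted p 0.00076) and the glycogen-binding protein Stbd1 fell by 0.58 ± 0.16 (0.0057).

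Insulin signalling was called in both directions, at 66.7% of its genes: 11 of 27 genes rose and 7 fell, or 8 and 6 without ob mouse 18. Pik3r1, the regulatory subunit of PI3-kinase, stood at -0.71, -0.84, -0.83, -0.64 and -0.64 in the lean mice and 0.62, 0.84, 0.50, 0.61 and 1.08 in the ob mice, a difference of 1.46 ± 0.11 (adjusted p 2e-12). No ob mouse was near a lean mouse. Tbc1d1 and Tbc1d4, which hold glucose transporters inside the cell until insulin or contraction releases them, rose by 1.16 ± 0.20 and 0.64 ± 0.15, and the growth kinase Mtor by 0.72 ± 0.08. Inhibitors of the insulin receptor pathway fell: Grb14 by 0.89 ± 0.15 (2.3e-05) and Socs3 by 0.87 ± 0.32 (0.038), the latter with ob mouse 10, at 0.47, among the lean mice and its call lost without any of lean mice 30 and 31 or ob mice 4, 5, 9 and 18. Igf1, the growth factor, fell by 0.75 ± 0.15 (0.00018). The docking protein Irs1 differed by 0.03 ± 0.04 (adjusted p 0.7). Irs2 was widely spread in ob mice, from -1.48 to 1.48, and differed by 0.39 ± 0.40 (adjusted p 0.55).

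Some genes of the atrophy programme rose, and ob mice differed among themselves. Wasting muscle is known to raise FoxO transcription factors and the ubiquitin ligases they switch on. Of 22 measured genes, 9 rose and 1 fell, with a median of 0.46 and a call share of 45.5%, beside 25.2% for all genes. In 4 all ob mice lay above all lean mice and in 1 below, while 21.3% of all genes had groups apart in either direction. The list mean ran from -0.37 in lean mouse 26 to 0.26 in lean mouse 31 and from 0.04 in ob mouse 4 to 0.81 in ob mouse 18. Without mice 26 and 18, 7 rose and 2 fell, with a median of 0.35. Foxo3 stood at -0.48, -0.23, -0.12, -0.38 and -0.16 in the lean mice and 0.25, 0.05, 0.22, 0.41 and 0.57 in the ob mice, a difference of 0.57 ± 0.10 (adjusted p 2.3e-05). Its groups did not overlap. Foxo1 rose by 0.99 ± 0.31 (adjusted p 0.015), but it was 0.81 (adjusted p 0.063) without lean mouse 26 and 0.84 (0.058) without ob mouse 18. The cell cycle inhibitor Cdkn1a rose by 0.97 ± 0.22 (adjusted p 0.00094), the stress protein Sesn1 by 0.66 ± 0.16 (adjusted p 0.0017) and the repressor Tgif1 by 0.97 ± 0.24 (adjusted p 0.0021), each highest in ob mouse 18. The 2 ligases best known for atrophy were not called. Fbxo32, or atrogin-1, stood at -0.22, -0.46, 0.56, 0.21 and -0.04 in the lean mice and 0.28, 0.68, 0.52, 0.39 and 1.87 in the ob mice. It differed by 0.73 ± 0.33 (adjusted p 0.11), and by 0.45 without ob mouse 18, which lay far above the rest. Trim63, or MuRF1, differed by 0.41 ± 0.42 (adjusted p 0.55) with overlapping groups. Mstn, myostatin, which limits muscle growth, was the 1 that fell, by 0.70 ± 0.14 (0.00017).

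Some glucocorticoid response genes rose too, with the same mice at the ends. Of 24 measured genes, 10 rose and 0 fell, with a median of 0.46. The list mean was lowest in lean mouse 26, at -0.42, and highest in ob mouse 18, at 0.75, and without both the count was 7 higher and 0 lower. Fkbp5, a co-chaperone of the glucocorticoid receptor and one of its best known targets, stood at -1.17, -0.70, -0.49, -0.83 and -0.27 in the lean mice and 0.98, 0.77, 0.69, 0.96 and 1.56 in the ob mice. It rose by 1.68 ± 0.37 (adjusted p 0.0006), and all ob mice lay above all lean mice. Klf15, a target that links glucocorticoids to amino acid breakdown, rose by 0.50 ± 0.18 (adjusted p 0.039) and lost its call without any of lean mice 26, 30 and 32 or ob mice 9, 10 and 18. Several of these genes also stand on the atrophy list, and Per1 stands on the clock list. After Fkbp5, the largest changes among called members were those of Pik3r1, Pdk4 and Angptl4. Pik3r1 is also on the insulin signalling list, and Pdk4 and Angptl4 are on the fatty acid oxidation list, so these counts are not separate.

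Several clock genes of the negative limb rose. In the circadian clock Arntl and its partner switch on the Per and Cry repressors, which then turn them off. Of 16 measured genes, 7 rose and 0 fell, with a median of 0.27, and the count was again 7 and 0 without mice 26 and 18. Cry2 stood at -0.69, -0.39, -0.47, -0.77 and -0.77 in the lean mice and 0.47, 0.59, 1.14, 1.26 and 1.56 in the ob mice, a difference of 1.62 ± 0.15 (adjusted p 3.8e-10). Per2 stood at -0.87, -0.04, -0.28, -0.57 and -0.77 in the lean mice and 0.25, 0.89, 1.13, 0.66 and 0.87 in the ob mice. It rose by 1.27 ± 0.29 (adjusted p 0.0011), and its groups did not overlap. Per1 and Per3 rose by 1.08 ± 0.23 (adjusted p 0.00048) and 0.82 ± 0.17 (adjusted p 0.00028). Arntl differed by -0.54 ± 0.23 (adjusted p 0.089), and the clock output factor Dbp by 0.23 ± 0.25 (adjusted p 0.58). The labels give no hour at which the muscles were taken, so whether the groups were sampled at the same hour was not tested. The Per1 promoter is shown because it holds an E-box, CACGTG in capitals, the letters that Arntl and its partner are known to bind. It begins 166 bases before the first of 2 starts in the RefSeq table, on the same window and build as above.
Per1 at chr11:69098699-69098998, plus strand: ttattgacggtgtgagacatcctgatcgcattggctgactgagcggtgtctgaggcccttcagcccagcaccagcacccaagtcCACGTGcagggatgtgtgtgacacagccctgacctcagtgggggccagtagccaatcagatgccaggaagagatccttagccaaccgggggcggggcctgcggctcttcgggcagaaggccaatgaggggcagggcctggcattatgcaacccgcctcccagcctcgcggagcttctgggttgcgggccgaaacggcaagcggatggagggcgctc
CACGTG occurs, on either strand, in 7.15% of all promoters. By gene, it occurs in 4 of 14 clock genes with a promoter in the table (28.6%), beside 8.09% of all 27025 genes.

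The counts of matrix genes called depended on single mice. Of 28 measured collagens and matrix proteins, 13 fell and 5 rose, with a median of -0.28. In 11 all ob mice lay below all lean mice and in 4 above, while 21.3% of all genes had groups apart in either direction. Ob mouse 18 had the lowest list mean, -1.35, beside -1.10 to -0.80 in the other ob mice and -0.87 to -0.73 in the lean mice. Without it 7 fell and 6 rose, without it and lean mouse 26 the counts were 6 and 5, and quantile normalization gave 6 and 6. Col3a1, the collagen of fine fibres, stood at -1.20, -1.36, -1.30, -1.33 and -1.49 in the lean mice and -2.12, -2.09, -2.38, -2.73 and -3.27 in the ob mice, a difference of -1.18 ± 0.19 (adjusted p 1.2e-05). The groups did not overlap. P4ha1, which hydroxylates collagen, stood at 0.20, 0.11, 0.21, 0.31 and 0.24 in the lean mice and -0.71, -0.80, -0.88, -1.09 and -1.07 in the ob mice. It fell by 1.12 ± 0.10 (6.9e-11), and Serpinh1, the collagen chaperone, by 0.96 ± 0.17 (5.1e-05). The 2 chains of collagen I overlapped between groups: Col1a1 differed by -0.53 ± 0.26 (adjusted p 0.14), and by -0.22 without ob mouse 18, while Col1a2 fell by 0.62 ± 0.21 (0.028), and was -0.36 (0.19) without it and -0.48 (0.11) without lean mouse 30. Col1a2 also lost its call without ob mouse 10 (adjusted p 0.059), with the compared arrays alone (0.13) and under quantile normalization, at -0.27 (0.3). Lox, which cross-links collagen and elastin, rose by 0.86 ± 0.17 (adjusted p 0.00018) and elastin itself, Eln, by 0.60 ± 0.17 (adjusted p 0.0067).

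Tendon and fibroblast genes, markers of tissue next to the fibres, counted 1 higher and 4 lower of 12. Their list mean was -1.14 in ob mouse 18, beside -0.62 to -0.33 in the other ob mice and -0.60 to -0.20 in the lean mice. Kera, keratocan of dense connective tissue, stood at -0.82, -0.23, -0.46, -0.24 and -0.33 in the lean mice and -1.78, -1.68, -0.98, -2.14 and -3.58 in the ob mice. It fell by 1.62 ± 0.27 (1.8e-05), with ob mouse 18 lowest, and Dpt, dermatopontin, by 1.07 ± 0.10 (4.9e-10). Thbs4, of tendon and muscle matrix, rose by 0.85 ± 0.17 (adjusted p 0.00014). How much tendon or connective tissue each sample held, and its part in the matrix values, was not tested.

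The largest fall among the genes named by rank was that of a fat cell gene. Cfd, complement factor D or adipsin, which fat cells secrete, stood at 2.23, 0.37, 0.84, 0.52 and 1.11 in the lean mice and -2.62, -2.93, -3.65, -3.82 and -3.46 in the ob mice. It was 19.8-fold lower in ob, -4.31 ± 0.29 (adjusted p 2.2e-13), and no ob mouse lay within 2 log2 units of a lean mouse. Retn, resistin of fat cells, stood at 1.52, -0.18, 0.16, -0.05 and 0.75 in the lean mice and -0.37, -0.43, -1.58, -1.32 and -0.91 in the ob mice, a difference of -1.36 ± 0.29 (adjusted p 0.00051). The rest of the 15 adipocyte genes gave no call: Adipoq, adiponectin, differed by -0.39 ± 0.30 (adjusted p 0.39), Plin1, the droplet coat of fat cells, by -0.07 ± 0.20 (adjusted p 0.87) and Lep as given above. The list mean was 0.81 in lean mouse 26, beside -0.12 to 0.14 in the other lean mice and -0.45 to 0.04 in the ob mice. Without lean mouse 26, 3 rose and 2 fell. The part of fat tissue in the Cfd and Retn differences was not tested.

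More macrophage and interferon genes fell than rose, and lean mouse 26 was high for both. Of 18 measured macrophage genes, 8 fell and 1 rose, with a median of -0.49, and without mice 26 and 18 the counts were 6 and 1. Adgre1, a surface receptor of macrophages, stood at 0.94, -0.15, -0.08, -0.09 and -0.08 in the lean mice and -0.38, -0.52, -0.62, -0.77 and -0.68 in the ob mice. It fell by 0.70 ± 0.15 (0.00059) and all ob mice lay below all lean mice. The complement subunit C1qb fell by 0.70 ± 0.16 (0.00073) and the mannose receptor Mrc1 by 0.65 ± 0.17 (0.0037), the latter -0.43 (0.081) without both mice. Cd68, a lysosomal marker of macrophages, rose by 0.60 ± 0.12 (adjusted p 0.00021). Retnla, known as a product of alternatively activated macrophages and of fat, stood at 2.19, 0.28, 1.25, 0.34 and 0.82 in the lean mice and -0.73, -1.12, -1.17, -1.58 and -1.84 in the ob mice. It fell by 2.26 ± 0.31 (7.6e-07), and was -1.96 without lean mouse 26. Lymphocyte and granulocyte genes counted 0 higher and 4 lower of 15, and 0 and 1 without lean mouse 26. Their call share of 26.7% was near the 25.2% for all genes.

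Of 18 interferon response genes, 12 fell and 0 rose, with a median of -0.30, and in 10 all ob mice lay below all lean mice. The list mean was 0.63 in lean mouse 26, beside -0.14 to 0.07 in the other lean mice and -0.42 to -0.18 in the ob mice. Without lean mouse 26, 10 fell and 1 rose, with a median of -0.20. Iigp1, an interferon-induced GTPase, stood at 3.45, -0.15, -1.08, -1.17 and -1.08 in the lean mice and -1.36, -1.80, -2.44, -2.62 and -1.80 in the ob mice. Its fall of 2.00 ± 0.50 (0.0027) was -1.13 without lean mouse 26. Tgtp1, of the same family, fell by 1.96 ± 0.48 (0.0018), or -1.22 without it. Rtp4 fell by 1.01 ± 0.22 (0.00053), or -0.66 without it, and the antiviral Ifit1 by 0.83 ± 0.18 (0.00053), or -0.61. The class II antigen-presenting genes H2-Eb1 and H2-Aa fell by 2.10 ± 0.28 (5.5e-07) and 1.83 ± 0.31 (2.5e-05), or -1.63 and -1.33 without it. Iigp1, Tgtp1 and the H2 genes have close relatives in the genome, and their probes may read more than 1 of them.

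**Figure D4:**
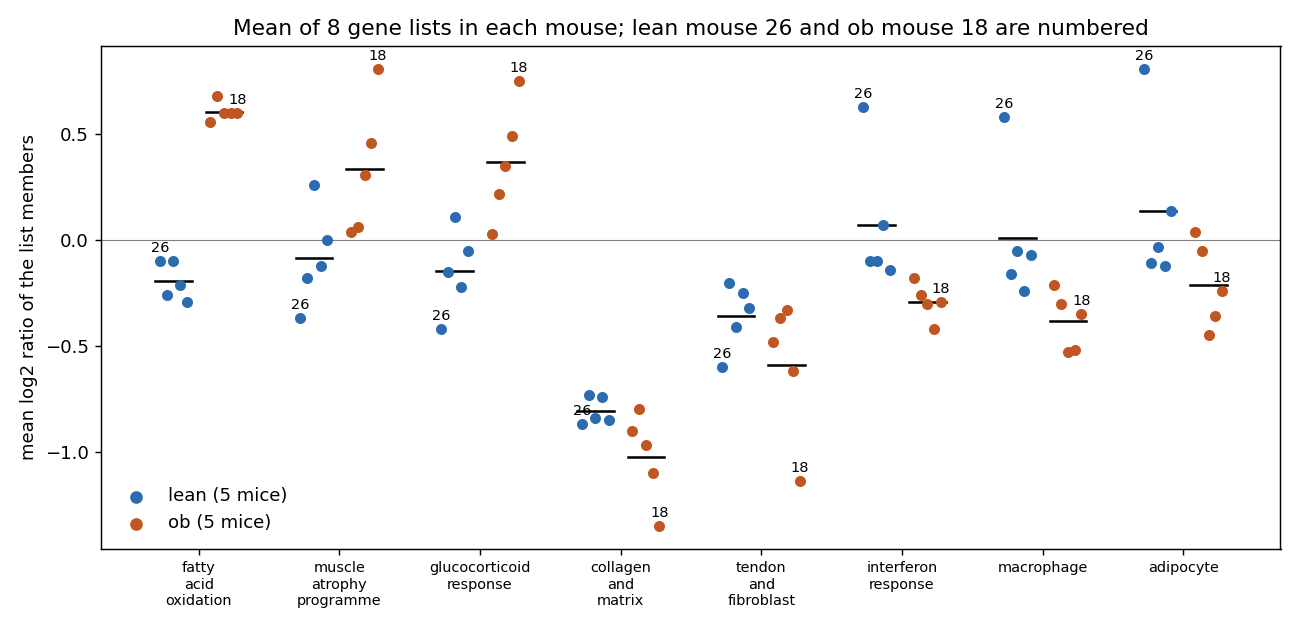
Mean log2 ratio of the members of 8 gene lists in each mouse; points are mice, lines are group means, and lean mouse 26 and ob mouse 18 are numbered. Fatty acid oxidation separates the groups with every mouse on its own side. Interferon response does so narrowly, with the lowest lean mouse at -0.14 and the highest ob mouse at -0.18. Ob mouse 18 is the extreme of atrophy, glucocorticoid, matrix and tendon genes and lean mouse 26 that of interferon, macrophage and adipocyte genes.

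Secreted and protective factors of the fibre also changed. Of 25 myokines and growth factors, 7 fell and 2 rose. Igfbp5, which binds insulin-like growth factors, stood at 0.27, 0.24, 0.07, -0.10 and -0.04 in the lean mice and -1.52, -1.0, -0.34, -1.11 and -2.70 in the ob mice. It fell by 1.42 ± 0.26 (5.6e-05), with ob mouse 9 nearest the lean group. Ostn, the muscle-secreted osteocrin, fell by 0.83 ± 0.21 (0.0025) and Fndc5, precursor of irisin, by 0.58 ± 0.08 (1.5e-06). Igf2, the fetal growth factor, stood at -1.94, -1.65, -1.86, -1.82 and -1.83 in the lean mice and -0.57, -0.78, -0.70, -0.67 and -0.62 in the ob mice. It rose by 1.15 ± 0.16 (adjusted p 1.4e-06), with groups far apart, as did the imprinted Peg3 by 1.29 ± 0.18 (adjusted p 6.4e-07). Among 17 chaperones 5 rose and 6 fell: the small heat shock proteins Hspb7 and Cryab rose by 1.44 ± 0.24 and 1.01 ± 0.12, and Dnajb1 of the classical heat shock response fell by 1.01 ± 0.30 (0.011), lost without lean mouse 31. Among 22 genes against oxidative stress 3 rose and 9 fell: catalase, Cat, rose by 0.77 ± 0.09 (adjusted p 6.3e-08) and the uncoupling protein Ucp2 by 1.14 ± 0.14 (adjusted p 8.5e-08), while Srxn1, which restores oxidised peroxiredoxins, fell by 0.71 ± 0.17 (0.0017) and the glutathione transferase Gsta3 by 1.01 ± 0.32 (0.018), the latter lost without lean mouse 26, lean mouse 33 or ob mouse 10.

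Some of the largest changes lay outside these lists. Amd1, adenosylmethionine decarboxylase of polyamine synthesis, stood at 1.65, 1.56, 1.63, 1.62 and 1.33 in the lean mice and -1.85, -1.56, -1.44, -1.95 and -2.59 in the ob mice. It was 10.8-fold lower in ob, -3.44 ± 0.34 (adjusted p 9.4e-10). Cbr2, a carbonyl reductase, stood at 1.21, 1.14, 1.09, 1.0 and 0.90 in the lean mice and -1.59, -1.33, -1.79, -1.93 and -1.97 in the ob mice, a difference of -2.79 ± 0.13 (adjusted p 4.2e-17). Both had over 2 log2 units between the nearest mice of the groups. Cyp2e1, a cytochrome P450 induced by ethanol and ketones, fell by 2.27 ± 0.30 (3.3e-07), Nrep by 2.09 ± 0.24 (2.8e-08), the carboxylesterase listed as Ces3 by 1.86 ± 0.26 (1.4e-06) and the membrane glutathione transferase Mgst1 by 1.74 ± 0.15 (1.1e-10). Lgals4, galectin 4, stood at -0.91, -0.83, -1.43, -1.15 and -1.20 in the lean mice and 0.96, 1.24, 1.24, 1.20 and 1.21 in the ob mice. It rose by 2.27 ± 0.15 (adjusted p 2.5e-13), with the 2 groups tight and apart. The vesicle GTPase Rab15 rose by 2.24 ± 0.13 (adjusted p 7.7e-15), the receptor tyrosine kinase Ros1 by 1.95 ± 0.17 (adjusted p 9.7e-11), the membrane protein Tmem100 by 1.92 ± 0.18 (adjusted p 2.7e-10), Tppp2 by 1.77 ± 0.17 (adjusted p 1e-09) and Ppp1r14bl by 2.04 ± 0.18 (adjusted p 1.4e-10).

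Whether these changes are particular to the diabetes-prone strain was addressed by B6 mice of the same age, also 5 ob and 5 lean. The obesity effect differed between strains in 1316 genes (6.61%), 544 of them more positive in BTBR (2.73%) and 772 more negative (3.88%). Within B6, 3232 genes were called (16.2%), 8.18% of all genes upwards and 8.06% downwards. Some of the largest BTBR changes had the same sign in B6. From the lean to the ob group mean there, Cfd went from 0.98 to -1.44 and Amd1 from 1.39 to -0.60. Myh3 went from -2.42 to -0.18 and Mybpc1 from -2.11 to -0.07. Others, such as Acot1 below, had the opposite sign. Of the 29 fatty acid oxidation genes, 21 had a more positive effect in BTBR and 0 a more negative one. In B6 itself 2 rose and 4 fell, with a median of 0.03. Acot1 differed between strains by 4.51 ± 0.32 (4.1e-12), from -0.81 in B6, where ob mice were lower, to 3.70 in BTBR. Pdk4 differed by 2.60 ± 0.35 (6.7e-06), being -1.33 in B6, Angptl4 by 2.11 ± 0.31 (2.2e-05), being -1.03 in B6, and Ucp3 by 1.75 ± 0.50 (0.026), being -0.86 in B6. The Ucp3 difference lost its call without BTBR lean mouse 32 or ob mouse 18, or without B6 lean mouse 23 or 24 or ob mouse 1823. Plin5 differed by 1.60 ± 0.25 (4.7e-05) and Fbp2 by 1.59 ± 0.15 (1.5e-08), with B6 at 0.16 and 0.14. Acot2 and Fabp3 differed by 2.71 ± 0.19 (4.1e-12) and 1.45 ± 0.21 (1.6e-05). Of 18 fatty acid synthesis genes, 7 were more negative in BTBR and 0 more positive, or 4 and 0 without BTBR lean mouse 26 and ob mouse 18. Fasn differed by -2.15 ± 0.42 (0.00099) and Scd1 by -1.43 ± 0.32 (0.0044), with B6 at 1.09 and 1.04. Of 15 adipocyte genes, 6 rose and 1 fell in B6. Their effect was more negative in BTBR in 5 and more positive in 0, or 3 and 0 without those mice. The part of fat tissue in these strain differences, and in those of Hp and Orm1 below, was not tested.

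Most matrix genes differed between strains: 19 of 28 were more negative in BTBR and 0 more positive, as 22 rose in B6. Without BTBR lean mouse 26 and ob mouse 18, 16 and 0 passed. Col1a1, at 2.04 in B6, differed by -2.57 ± 0.37 (1.5e-05), Col1a2 by -2.32 ± 0.30 (4.3e-06), Col3a1 by -1.99 ± 0.27 (7.9e-06) and Kera by -2.09 ± 0.38 (0.00047). The acute-phase proteins Hp, haptoglobin, and Orm1, orosomucoid, which liver and fat make, differed by -3.06 ± 0.33 (1.6e-07) and -2.51 ± 0.39 (4.9e-05). Both rose in B6, by 2.42 and 1.57, and in BTBR both fell by less than 1, where Hp lost its call without any of lean mice 26, 31 and 33 or ob mice 9, 10 and 18. Of 17 slow fibre genes 13 rose in each strain, and 2 differed: Myh7 by -0.96 ± 0.25 (0.013) and Tnnt1 by -0.77 ± 0.19 (0.0076), more positive in B6. Of the clock genes 4 were more positive in BTBR: Per2 differed by 1.65 ± 0.41 (0.01), Cry2 by 1.43 ± 0.22 (3.5e-05) and Per1 by 1.27 ± 0.33 (0.013). Atrophy genes counted 6 and 0, but 2 and 0 without mice 26 and 18. Of 18 interferon response genes, 7 fell and 0 rose in B6, and 0 differed between strains. Of 23 denervation and regeneration genes, 8 rose and 3 fell in B6, and 1 differed, more negative in BTBR. Lgals4 differed by 1.95 ± 0.22 (1.8e-07), Cbr2 by -1.67 ± 0.19 (2.2e-07), and Chac1, a glutathione-degrading enzyme of the stress response, by 2.07 ± 0.51 (0.0086), being -1.96 in B6 and 0.11 in BTBR.

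The effect at 10 weeks was also set against that at 4 weeks in BTBR, before diabetes is usual, again 5 ob and 5 lean mice. It differed in 1158 genes (5.82%), 494 more positive at 10 weeks (2.48%) and 664 more negative (3.34%). At 4 weeks 1168 genes were called (5.87%), 2.85% of all genes upwards and 3.02% downwards. The group means of Cfd at that age were 0.36 in lean and -2.46 in ob mice. Of the 29 fatty acid oxidation genes, 0 rose and 3 fell at 4 weeks, and 23 were more positive at 10 weeks and 0 more negative. Acot1 changed by 4.09 ± 0.32 (5e-11) between ages, from -0.38 at 4 weeks, and Acot2 by 2.64 ± 0.19 (5.8e-12), from -0.28. Pdk4 changed by 2.27 ± 0.35 (5.2e-05) and Angptl4 by 2.25 ± 0.31 (1.2e-05), as both had fallen at 4 weeks, to -1.01 and -1.17. Rab15 and Lgals4 became more positive, by 2.04 ± 0.19 (2.1e-09) and 1.99 ± 0.22 (9.2e-08). Fasn, which had risen by 1.12 at 4 weeks, became more negative by 2.18 ± 0.42 (0.00091), and 8 of 18 fatty acid synthesis genes did so. Amd1 changed by -3.01 ± 0.47 (7.5e-05) and Cbr2 by -2.38 ± 0.19 (5.8e-11). Orm1 changed by -2.26 ± 0.39 (0.00022), and Tgtp1 and the class I gene H2-Q7 by -2.36 ± 0.67 (0.029) and -2.12 ± 0.51 (0.0085), with lean mouse 26 high for both. The Tgtp1 difference lost its call without ob mouse 10, or without lean mouse 42 or ob mouse 15 of the 4-week groups.

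The soleus, a small and mostly slow calf muscle, was measured in BTBR mice of the same age, 5 ob and 5 lean, 9 of them the same mice. In soleus 5959 genes were called (30.0%). The effect differed between the muscles in 2086 genes (10.5%), 1005 more positive in gastrocnemius (5.05%) and 1081 more negative (5.43%). Of the 29 fatty acid oxidation genes, 15 were more positive in gastrocnemius and 0 more negative. In soleus 14 rose and 3 fell. Acadl differed by 0.93 ± 0.12 (8.6e-05), being 0.23 in soleus. Ppargc1a, the coactivator best known for building mitochondria, fell in soleus, at -1.80, and differed between muscles by 1.72 ± 0.25 (0.00018). There 39 of 48 respiratory chain genes fell and 0 rose. Igf2 differed by 1.36 ± 0.10 (3.7e-07), being -0.21 in soleus.

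The largest differences between muscles included genes of the fibre and of transport. Mybph, myosin-binding protein H, rose in soleus by 4.87, was 0.24 in gastrocnemius, and so differed by -4.63 ± 0.29 (6.1e-08). Rbp4, the retinol carrier, likewise rose in soleus by 3.02 and differed by -3.70 ± 0.35 (3.1e-06). Ndrg4 and the carboxylesterase Ces5a rose in both muscles, more in soleus, with differences of -2.77 ± 0.34 (3.5e-05) and -2.43 ± 0.18 (2.6e-07). Ppp1r14bl, Chrna9, an acetylcholine receptor subunit, and Tmem100 were more positive in gastrocnemius by 3.51 ± 0.30 (8.6e-07), 2.99 ± 0.41 (0.00011) and 2.01 ± 0.17 (8.5e-07). Mybpc2, the fast myosin-binding protein C, fell in soleus, at -2.54, and differed by 2.58 ± 0.69 (0.022). It was widely spread in soleus, from -1.20 to 1.42 in the lean mice and from -3.63 to -0.32 in the ob mice. Soleus Myh4 ran from -3.61 to 2.67 in the lean mice and from -3.05 to 1.76 in the ob mice. The part of fast fibres in each soleus sample in these differences was not tested. The solute carrier Slc41a3 and the iron exporter Slc40a1 fell in soleus and differed by 2.01 ± 0.26 (7.1e-05) and 1.89 ± 0.15 (5.9e-07). Amd1 and Cbr2 were more negative in gastrocnemius, the differences being -2.39 ± 0.23 (4.1e-06) and -2.38 ± 0.25 (1.3e-05). These 3 comparisons all use the same 10 gastrocnemius arrays, so their results are not independent of each other.

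**Figure D5:**
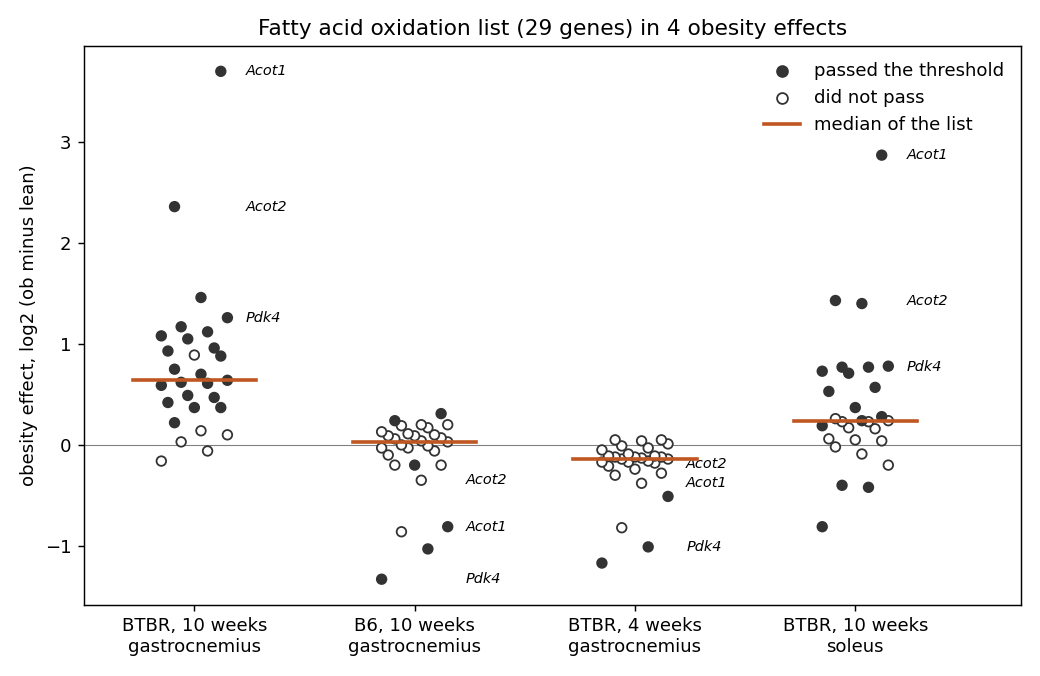
Obesity effect (log2, ob minus lean) of each of the 29 fatty acid oxidation genes in 4 comparisons; filled points passed an adjusted p of 0.05 within their own comparison, and the line is the list median. The list lies above 0 in 10-week BTBR gastrocnemius (median 0.64) and close to 0 in B6 (median 0.03), with Acot1 at 3.70, -0.81, -0.38 and 2.87 from left to right.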

How the data were processed

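The series holds 240 2-colour array hybridisations, each of RNA from 1 mouse against a pool; the gastrocnemius and soleus pools held 20 samples of the mouse's strain and muscle, per the labels. The authors deposited 1 log10 ratio per probe and array for 39556 probes, limited to -2 and 2, with array medians of -0.005 to 0.014 over the gastrocnemius arrays; 58 of their values lie at a limit. Scanner files were not used here. No source read here gives the background correction, the normalization or the ratio direction. The pool is the same for ob and lean mice of a strain and cancels in their difference.

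The deposited ratios were rescaled to log2. Probes were named through the platform annotation: 23283 probes (58.9%) have 1 gene symbol and 16273 none. Symbols were matched by name to RefSeq: 16574 probes had a current symbol, 6594 were updated through a synonym and 115 kept the symbol given. Probes of a gene were averaged, giving 19896 genes, all tested, since ratios allow no filter on level. Array number limits the precision. Limma 3.58.1 in R 4.3.3 fitted 1 mean for each of 8 groups over the 40 gastrocnemius arrays (5 mice a group, strains BTBR and B6, ages 4 and 10 weeks, lean and ob), and took the ob minus lean difference in BTBR at 10 weeks and its difference from B6 and from 4 weeks. The muscle comparison used the 20 BTBR arrays of gastrocnemius and soleus at 10 weeks with 4 groups. P-values are two-sided and Benjamini-Hochberg adjusted over all genes, and a call is an adjusted p under 0.05. On simulated ratios of independent normal noise, 200 of 19896 genes were changed. The comparison of ob and lean found 99% of the 2-fold and 90% of the 1.5-fold changes, and 5.97% of its calls were false. Smaller changes, such as the median called size of 0.32 in log2, were not simulated. Figures and tables used Python 3.11.15 with pandas 2.3.3 and matplotlib 3.10.9.

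The named genes are Lep, the 12 largest rises and falls among called genes whose groups do not overlap, the 6 largest in each direction for the 3 differences between effects, and, from each list, up to 4 called members with the largest change, beside further list members with their values; placeholder symbols were skipped. The comparison, the lists and these rules were chosen with earlier results of these data known. Lists are described by counts and medians, with no test over a list. The arrays in the fit, centring, quantile normalization, the choice of probe, values at the limits, robust moderation, array weights and single mice left out were tried as alternatives. Leaving out lean mouse 26 and ob mouse 18 together was chosen after seeing the data. The muscle results printed come from a fit that does not pair the muscles of a mouse. A fit with the mouse number as a replicate block was run as an alternative. In these data 9 mice gave both muscles, and deviations from group means correlated at 0.137 to 0.538 within each mouse, so the numbers pair the samples. None of the 10 arrays were identical.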

Additional observations from a re-analysis of the deposited data

Results flagged for a closer look

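The obesity effect differed between strains in 1316 genes, between ages in 1158 and between muscles in 2086, each by a test of the difference itself with limma. Among the genes named here, the BTBR effect minus the B6 effect was 4.51 for Acot1, 2.71 for Acot2, 2.60 for Pdk4, 2.11 for Angptl4, 1.75 for Ucp3, 1.45 for Fabp3, 1.60 for Plin5, 1.59 for Fbp2, -2.15 for Fasn, -1.43 for Scd1, -0.77 for Tnnt1, -0.96 for Myh7, -2.57 for Col1a1, -2.32 for Col1a2, -1.99 for Col3a1, -2.09 for Kera, -3.06 for Hp, -2.51 for Orm1, -1.67 for Cbr2, 1.95 for Lgals4, 2.07 for Chac1, 1.27 for Per1, 1.65 for Per2 and 1.43 for Cry2. The effect at 10 weeks minus that at 4 weeks in BTBR was 4.09 for Acot1, 2.64 for Acot2, 2.27 for Pdk4, 2.25 for Angptl4, 2.04 for Rab15, 1.99 for Lgals4, -3.01 for Amd1, -2.38 for Cbr2, -2.36 for Tgtp1, -2.26 for Orm1, -2.18 for Fasn and -2.12 for H2-Q7. The gastrocnemius effect minus the soleus effect was 3.51 for Ppp1r14bl, 2.99 for Chrna9, 2.58 for Mybpc2, 2.01 for Slc41a3, 2.01 for Tmem100, 1.89 for Slc40a1, -4.63 for Mybph, -3.70 for Rbp4, -2.77 for Ndrg4, -2.43 for Ces5a, -2.39 for Amd1, -2.38 for Cbr2, 0.93 for Acadl, 1.72 for Ppargc1a and 1.36 for Igf2. All these differences are in log2.

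Over all genes, 1 mouse lay far from the other 4 in 7.30% of lean and 6.15% of ob groups, where chance gives about 5%. For the genes named, single mice did so in 27 of 342 groups of 5 checked, 7.89%. Lean mouse 26 did so at -1.69 for Acot1, 0.63 for Cidea, 1.17 for Plin1, 0.94 for Adgre1, 0.82 for C1qb, 0.49 for Mrc1, 2.38 for H2-Eb1, 3.45 for Iigp1, 3.27 for Tgtp1 and 1.49 for Rtp4. Lean mouse 31 did so at -0.16 for Acadl, -0.58 for Myh8, 0.36 for Uqcrh and 0.45 for Tgif1. Lean mouse 32 did so at 0.57 for Bcat2. Lean mouse 33 did so at 1.33 for Amd1. Ob mouse 9 did so at 1.90 for Fabp3. Ob mouse 18 did so at -0.74 for Fitm1, -0.94 for Pgam2, -0.45 for Fh1, 1.87 for Fbxo32, 0.39 for Cat and -3.18 for Nrep. Ob mouse 4 did so at 0.70 for Cidea and 0.96 for Lgals4. Ob mouse 10 did so at 0.96 for Dnajb1 and 0.86 for Ces5a.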

How the results depend on the processing

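The count of 5008 genes that differed between ob and lean BTBR gastrocnemius ran from 4344, without ob mouse 18, to 4942 when 1 mouse was left out, and from 3909, without lean mouse 26 and ob mouse 18, to 6047, with array weights, over the other alternatives. The strain difference, 1316 genes, ran from 967 to 1407 with 1 mouse left out, fell to 843 genes without both of those mice, and rose to 1869 with the compared groups' arrays alone. The age difference, 1158 genes, ran from 882 to 1222 with 1 mouse left out and from 820 to 1246 otherwise. The muscle difference, 2086 genes, ran from 1658 to 2328 with 1 mouse left out; with the mouse as a replicate block, at a consensus correlation of 0.182, it was 2910, and of 29 fatty acid oxidation genes 17 in place of 15 were more positive in gastrocnemius, and 0 more negative in both. Of the 171 genes named, 147 were called; 124 kept the call under every alternative run, 23 lost it under at least 1, of which 3 only where 1 mouse was left out, and 0 reversed. Of those not called, Arntl, Fbxo32, Mybph, Myh2, Slc2a4 and Ucp3 were called under at least 1 alternative. Limits: ratios give no levels, direction is inferred, no batch or hour of sampling is named, 5 mice a group bound the precision, and tissue makeup was not measured.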

Other observations

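The share of all genes called was 25.2%. Of 26 cytosolic ribosome genes 6 rose and 1 fell, and of 26 autophagy and lysosome genes 7 rose and 2 fell, with medians of 0.07 and 0.03. Proteasome subunits counted 3 higher and 4 lower of 30, 0 and 8 without ob mouse 18, 1 and 4 without lean mouse 26, and 0 and 10 without both. Stress genes of the endoplasmic reticulum counted 6 higher and 6 lower of 23. Asns, asparagine synthetase of the amino acid response, ranged from -0.05 to 0.29 in the lean mice and from -0.95 to -0.29 in the ob mice, a fall of 0.66 ± 0.12 (adjusted p 6.4e-05). Immediate early genes counted 2 and 2 of 22, or 0 and 3 without lean mouse 26. Of 28 mitosis genes 0 rose and 4 fell, among them the kinase Aurka, from 0.27 to 0.41 in the lean mice and from -0.56 to -0.23 in the ob mice, by 0.72 ± 0.08 (4.4e-09). Genes of excitation and calcium release counted 2 and 2 of 19, and Kcnj11, the pore of the ATP-sensitive potassium channel, rose by 0.53 ± 0.10 (6.7e-05), with the ob mice at 0.36 to 0.62 above the lean mice at -0.16 to 0.09. Among markers of other cells, endothelium counted 2 higher and 1 lower of 14, smooth muscle and pericyte 3 and 2 of 10 (1 and 1 without ob mouse 18, 1 and 2 without lean mouse 26), and Schwann cell (8 genes) and red blood cell (6 genes) markers 0 and 0.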
